A study of Drosophila melanogaster with 2 samples.

Results

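Of 7229 reproducible Hr51-GFP summits, 688 (9.52%, 95% Wilson interval 8.86 to 10.2%) lay 1 to 1000 bp downstream of a gene start. A summit is the position of highest enrichment in a chromatin immunoprecipitation (ChIP-seq) peak, and each was assigned to the nearest transcription start site (TSS) of a protein-coding gene, on the strand of that gene. A further 80 summits between divergent TSSs at most 1000 bp apart were dropped from the 768 that met the distance rule, as the rule asks. The 688 downstream summits belonged to 682 distinct peak intervals and 613 genes, 4.4% of the 13945 protein-coding genes. Of these genes 546 had 1 downstream summit, 60 had 2, 6 had 3 and 1 had 4.

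The peaks came from whole Drosophila melanogaster embryos, males and females pooled, aged 14 to 16 h. The flies were of a transgenic line, Dhr51-GFP, that makes Hr51 with GFP joined to its C terminus, and chromatin sheared to 200 to 800 bp was precipitated with an antibody against GFP. The 2 samples were biological replicates, numbered 1 and 3, of this 1 line and age, so there was no second condition and no test over samples. Both replicates carry the transgene, a control used by the submitters to call peaks was not analysed here, and all tissues of the embryo were mixed, so a summit cannot be assigned to a cell type and says nothing of expression. The spread is given by each replicate's own peak list cut to its 7229 peaks of highest signal, the authors' score per peak. In these lists 824 (11.4%) of the summits of replicate 1 and 637 (8.81%) of those of replicate 3 were downstream summits. Sequencing depth is unknown, and intervals cover counting error over summits or genes only.

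The protein Hr51, also named unfulfilled, belongs to the NR2E nuclear receptors, is related to vertebrate PNR and is known in flies for its role in mushroom body neurons and in clock neurons. Nuclear receptors bind short half-sites in DNA through a pair of zinc fingers, and NR2E receptors are known to favour the half-site AAGTCA over AGGTCA. The DNA just downstream of a TSS holds the 5′ untranslated region (5′ UTR), the start of the coding sequence and, in many fly genes with long transcripts, the beginning of the first intron. First introns are known to hold many of the enhancers of Drosophila genes.

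Strong downstream summits in introns often sat in short stretches of A/T-rich DNA. The sequences printed here are shown so that single summits can be set beside the averages of GC content given further on, exceptions included. Each pair gives the window from 50 bp before to 50 bp after a summit and the window of the same length centred 300 bp further downstream (flank), for strong intron summits whose windows are wholly intronic and hold no UTR. They are read 5′ to 3′ along the gene's strand from the RefSeq Release 6 genome (dm6), and capitals mark runs of 6 or more bases that are all A or T.
CG9663 summit, chr2L:3302126-3302226, - strand: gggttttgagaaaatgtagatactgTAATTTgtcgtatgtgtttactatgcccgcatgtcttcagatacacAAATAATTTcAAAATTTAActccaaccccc
CG9663 flank, chr2L:3301826-3301926, - strand: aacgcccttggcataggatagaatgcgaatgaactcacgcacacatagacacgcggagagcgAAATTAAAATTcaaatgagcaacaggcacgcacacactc
kuk summit, chr3R:17080780-17080880, + strand: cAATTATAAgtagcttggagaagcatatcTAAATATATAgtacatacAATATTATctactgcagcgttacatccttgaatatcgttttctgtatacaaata
kuk flank, chr3R:17081080-17081180, + strand: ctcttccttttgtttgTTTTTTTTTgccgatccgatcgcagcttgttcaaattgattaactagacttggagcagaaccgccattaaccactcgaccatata
Dok summit, chrX:7324971-7325071, + strand: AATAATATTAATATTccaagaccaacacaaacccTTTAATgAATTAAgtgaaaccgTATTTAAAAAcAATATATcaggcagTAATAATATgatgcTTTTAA
Dok flank, chrX:7325271-7325371, + strand: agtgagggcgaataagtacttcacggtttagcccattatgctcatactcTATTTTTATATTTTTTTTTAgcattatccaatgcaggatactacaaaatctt
fray summit, chr3R:18573914-18574014, + strand: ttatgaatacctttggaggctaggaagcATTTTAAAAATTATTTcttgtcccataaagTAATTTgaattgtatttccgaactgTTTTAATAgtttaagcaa
fray flank, chr3R:18574214-18574314, + strand: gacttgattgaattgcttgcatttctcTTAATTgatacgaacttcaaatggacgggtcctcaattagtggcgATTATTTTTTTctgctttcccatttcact
CG31612 summit, chr2L:21794917-21795017, - strand: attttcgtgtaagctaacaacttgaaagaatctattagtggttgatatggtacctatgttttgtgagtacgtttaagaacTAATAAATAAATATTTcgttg
CG31612 flank, chr2L:21794617-21794717, - strand: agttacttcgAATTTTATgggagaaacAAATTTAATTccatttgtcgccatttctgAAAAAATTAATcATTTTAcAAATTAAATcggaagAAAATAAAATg

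At CG9663, an ABC transporter gene, the summit lay 954 bp downstream of the TSS with a signal of 1031 in replicate 1 and 1454 in replicate 3. At kuk, which encodes the nuclear envelope protein Kugelkern, the summit was 586 bp downstream with 1011 and 977, and at Dok, a gene for an adaptor of receptor tyrosine kinases, it was 807 bp downstream with 867 and 1067. At fray, which encodes a Ste20-type kinase needed for the wrapping of axons by glia, the summit was 873 bp downstream with 750 and 1101. At CG31612 it was 480 bp downstream with 647 and 1173. All of these summits ranked among the 300 strongest of both replicate lists, from 82 to 288. The GC content of the window was 35.6% at the CG9663 summit against 47.5% in its flank, 28.7% against 40.6% at kuk, 24.8% against 32.7% at Dok and 27.7% against 36.6% at fray. CG31612 went the other way, with 28.7% at the summit and 24.8% in the flank. The longest run of A and T bases was longer at the summit than in the flank at kuk, fray and CG31612, and shorter at CG9663 (9 against 11 bases) and Dok (15 against 20 bases).

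Summits were sparse just downstream of gene starts compared with just upstream. The positions that met the rule made up 15.41 Mb, or 11.5% of the 6 chromosome arms, and held 44.7 summits per Mb (95% Poisson interval 41.4 to 48.1), against 55.2 per Mb in the rest of the genome. The core upstream zone, 1 to 300 bp upstream of a TSS and not between divergent TSSs, held 905 summits at 246 per Mb (231 to 263). By distance, the density fell from 303 per Mb between 100 and 200 bp upstream to 157 in the last 100 bp before the TSS, 89.7 at 1 to 100 bp downstream and 23.0 between 200 and 300 bp (16.3 to 31.6). It was higher again further in, at 52.4 per Mb from 801 to 900 bp (41.0 to 66.0). Both replicates had this trough, with 23.0 and 23.6 per Mb between 200 and 300 bp and 51.7 and 54.6 at 801 to 900 bp.

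**Figure D1:**
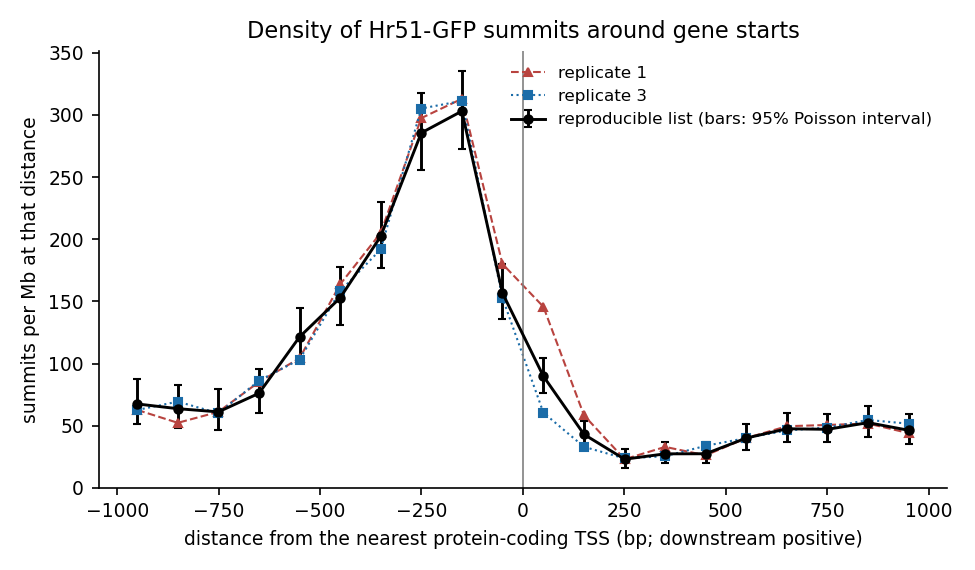
Summits per Mb in 100 bp steps of distance from the nearest protein-coding TSS (x axis, bp, downstream positive), for the reproducible list (black, bars are 95% Poisson intervals) and for each replicate list cut to 7229 peaks. Replicates 1 and 3 part most at 1 to 100 bp downstream, with 146 and 60.4 summits per Mb, and less so between 100 and 200 bp, with 58.3 and 33.0.

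The replicates differed near the TSS. At 1 to 100 bp replicate 1 had 258 summits and replicate 3 had 107, and the reproducible list had 159. Of the 258 in replicate 1, 216 (83.7%) overlapped some peak among the 30000 of replicate 3, but only 117 (45.3%, 39.4 to 51.5%) were among its 7229 strongest. Of the 107 in replicate 3, 86 (80.4%, 71.8 to 86.8%) were among the 7229 strongest of replicate 1. Of all summits beyond 100 bp, 74.4% of 566 in replicate 1 and 76.0% of 530 in replicate 3 were among the strongest of the other replicate. Between 100 and 200 bp the counts were 99 in replicate 1 and 56 in replicate 3, and between 200 and 300 bp they were 38 and 39, so the gap reached 200 bp from the TSS. The median distance from the TSS was 459.5 bp in the reproducible list, 333 bp in replicate 1 and 539 bp in replicate 3.

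Downstream summits lay in introns and 5′ UTRs and almost never in coding sequence. Of the 688, 410 (59.6%, 55.9 to 63.2%) were in introns, 254 (36.9%, 33.4 to 40.6%) in 5′ UTRs and 12 (1.74%, 1.00 to 3.02%) in coding sequence, although coding sequence made up 45.6% of the zone. Per Mb of each feature in the zone there were 95.7 summits in introns, 78.7 in 5′ UTRs and 1.71 in coding sequence. The intron density was nearly the same in replicates 1 and 3, at 99.0 and 97.3 per Mb. The 5′ UTR density was 113 per Mb in replicate 1 and 58.9 in replicate 3, and the coding density, from 20 and 11 summits, was 2.85 and 1.57. The other 12 summits were in noncoding exons (5), intergenic DNA (5) and 3′ UTRs (2).

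Coding sequence held fewer summits per Mb than introns at every 100 bp step of distance. At 1 to 100 bp, where 149 of 159 summits were in 5′ UTRs, coding sequence held 16.2 summits per Mb against 107 for 5′ UTRs. At 601 to 700 bp it held 2.70 per Mb against 122 for introns (93.9 to 156), and from 801 to 1000 bp no coding summit was found. Density in introns was 54.7 per Mb between 200 and 300 bp and 122 at 801 to 900 bp. The strongest of the 12 coding summits were at CG44812 (signal 597) and at Got2, which encodes mitochondrial aspartate aminotransferase (389), and none of the 12 was among the 1000 strongest reproducible summits.

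**Figure D2:**
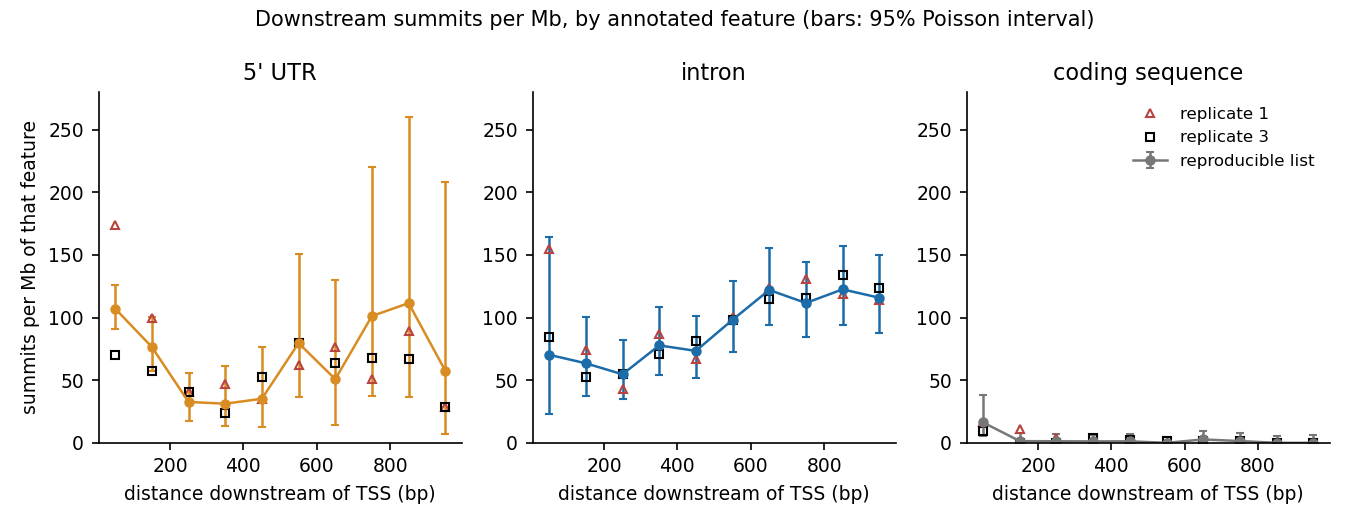
Downstream summits per Mb of 5′ UTR, intron and coding sequence (3 panels, same y axis) by distance from the TSS in 100 bp steps; filled points are the reproducible list with 95% Poisson intervals, open triangles replicate 1 and open squares replicate 3. Coding sequence stays at or under 16.2 per Mb in the reproducible list while introns hold between 54.7 and 122 per Mb.

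The intron summits were summits of long first introns. Of the 410, 369 (90.0%, 86.7 to 92.5%) lay in the first intron of every transcript that starts at the assigned TSS, at a median of 326 bp past the end of the first exon over the 375 downstream summits placed in a first intron. The 359 TSSs with such a summit had a median first intron of 2276 bp, against 207 bp over the 16229 protein-coding TSSs with an intron and a first exon under 1000 bp. A first-intron summit was found at 0.153% of TSSs with a first intron of at most 250 bp, 2.52% of those with up to 1000 bp and 5.39% of those with up to 4000 bp. It was found at 6.18% (5.21 to 7.31%) of those with longer introns. A longer intron offers more positions up to 1000 bp, which these shares do not adjust for.

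Downstream summits were concentrated at genes with several start sites. Of the 688, 473 (68.8%, 65.2 to 72.1%) were at genes with more than 1 annotated protein-coding TSS, while 26.5% of the 13945 genes have more than 1. Such genes also have more positions that meet the rule, so densities are given. Genes with 1 TSS held 22.9 summits per Mb of zone (19.9 to 26.2), genes with 2 held 61.6 (53.4 to 70.7) and genes with 3 or more held 98.8 (87.4 to 111). In 295 (42.9%) of the downstream summits the assigned TSS was internal, downstream of another start of its gene, against 28.9% of all TSSs. Only genes with more than 1 TSS can have an internal one. These 2 shares are not adjusted for that, so they are not a result apart from the number of TSSs. A second reproducible summit lay 0 to 1000 bp upstream of the same TSS in 183 (26.6%) cases, and a noncoding RNA start was nearer than the protein-coding one in 19. No background over all TSSs or zone positions was computed for these counts, so neither can be called high or low.

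Intron summits were lower in GC content than their surroundings. Mean GC in the window was 31.5% ± 8.56 (SD, n = 410) at intron summits, 44.1% ± 8.85 in the windows 300 bp upstream and 42.8% ± 9.94 in those 300 bp downstream. All intron windows of this length in the zone had a mean of 38.7% ± 9.03. Some of these flanks hold exons. The difference was also there where the flank was wholly intronic, with 30.3% against 43.0% for 170 upstream flanks and 31.6% against 40.9% for 310 downstream flanks. The summit was the lower of the pair in 145 (85.3%) and 237 (76.5%) of these. The replicate lists gave means of 32.9% and 31.2% at intron summits. The core upstream summits had a mean of 32.2% ± 10.6, close to that of the intron summits.

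The 5′ UTR summits had no dip of that size. Of their peaks 49.6% were exactly 410 bp wide, against 26.6% of those of intron summits and 25.85% of all reproducible peaks. At named genes with a peak of this width, among them Syx1A, Ald1 and Hr39, the summit was at the centre of the interval. How the width and the summit position arose was not tested. Mean GC at the 5′ UTR summits was 41.0% ± 9.70 (n = 254), against 42.9% ± 8.62 in 5′ UTR windows of the zone. GC at the summit was below both flanks in 83 (32.7%, 27.2 to 38.7%) of them, against 293 (71.5%, 66.9 to 75.6%) of the intron summits and 591 (65.3%) of the core upstream summits. Flanks of 5′ UTR summits had means of 39.3% ± 11.2 upstream and 44.9% ± 8.54 downstream. Of the 254, 149 lay 1 to 100 bp from the TSS, so their upstream flank was centred before the gene start. The shares below both flanks are not adjusted for this. Replicate 1 gave 42.7% and replicate 3 gave 38.6% for the mean at 5′ UTR summits. Windows with a run of 10 or more bases all A or T made up 62.9% of intron summits and 61.8% of core upstream summits. They made up 33.9% of 5′ UTR summits, 31.8% in replicate 1 and 41.6% in replicate 3, against 29.3% of all 5′ UTR windows. Of all intron windows 37.8% had such a run.

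**Figure D3:**
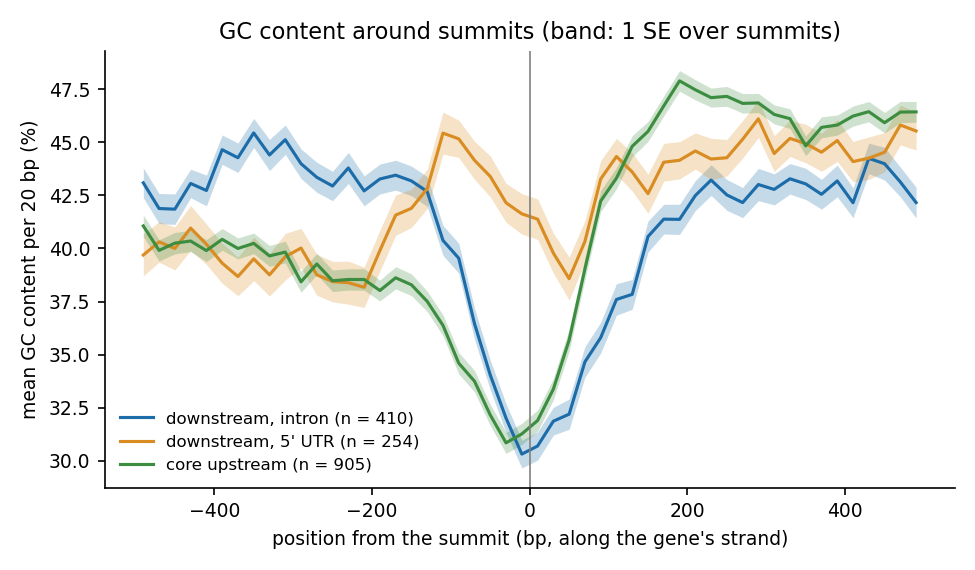
Mean GC content (y axis, %) in 20 bp steps along the gene's strand around intron summits, 5′ UTR summits and core upstream summits; bands are 1 standard error over summits. Intron summits dip to 30.3% at the centre and core upstream summits to 30.9%, while 5′ UTR summits stay between 38.2 and 46.1%. Within that range 5′ UTR summits have a smaller dip off centre, to 38.6% at 40 to 60 bp downstream of the summit. On either side it is 45.4% at 120 to 100 bp upstream and 44.3% at 100 to 120 bp downstream.

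Summit density rose as GC fell in introns, and coding sequence held few summits within the same GC bins. Introns of the zone with under 25% GC held 339 summits per Mb (275 to 414), those with 30 to 35% held 113 and those with 45 to 50% held 29.4. The replicates gave 301 and 332 per Mb under 25% and 50.5 and 37.5 at 45 to 50%. In 5′ UTRs the density was 265 per Mb under 25% GC and between 65.9 and 74.7 in every bin from 30% upward. At 50% and over replicate 1 had 120 summits per Mb of 5′ UTR and replicate 3 had 30.8, so the replicates also differed most in G/C-rich 5′ UTR. Had coding sequence held summits at the intron density of each GC bin, it would have had 247.9 in place of 12. Of its 7.029 Mb in the zone, 4.558 Mb was in the open bin of 50% and over, within which GC was not matched. By the same count 5′ UTRs would have had 206.1, and their 254 summits were 1.23 times that, although their density over all bins was below that of introns. The count was not made for each replicate.

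**Figure D4:**
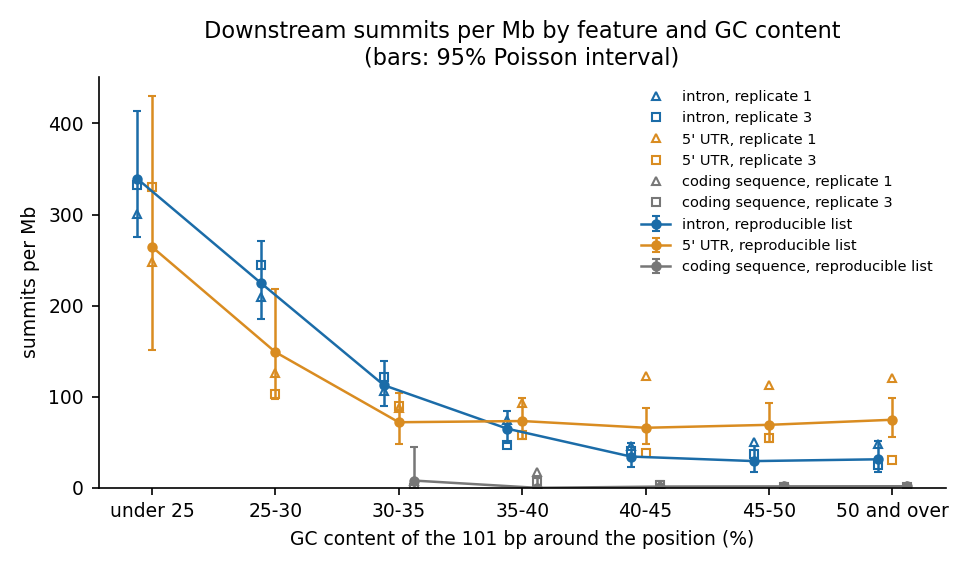
Downstream summits per Mb of intron, 5′ UTR and coding sequence (y axis) by GC content from 50 bp before to 50 bp after the position (x axis, %); filled points are the reproducible list with 95% Poisson intervals and open symbols the replicates. Intron density falls from 339 to about 31.3 per Mb from the lowest to the highest bin, and coding sequence, drawn from 30% upward where there is enough of it, stays at or under 8.01 per Mb in the reproducible list, with up to 17.6 in replicate 1.

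Of the nuclear receptor half-sites, AGGTCA was no more frequent at downstream summits than in the zone, and AAGTCA was more frequent in 5′ UTRs. Over all 688 summits AGGTCA was in 1.60% against 3.18% of zone windows, and AAGTCA in 6.69% (5.05 to 8.80%) against 4.35%, with 5.34% in replicate 1 and 5.65% in replicate 3. Motifs were searched on both strands of the windows, so a match is only the presence of the letters. The half-site AGGTCA was in 1.95% of intron summits, against 2.74% of all intron windows of the zone, and in 1.18% of 5′ UTR summits against 1.51% of 5′ UTR windows. The NR2E half-site AAGTCA was in 4.88% of intron summits against 5.21% of intron windows. In 5′ UTR summits it was in 9.45% (6.43 to 13.7%), against 4.49% of 5′ UTR windows, with 6.30% (4.24 to 9.28%) in replicate 1, 7.89% (4.84 to 12.6%) in replicate 3 and 6.69% in the windows 300 bp upstream. The 5′ UTR value was above that of all 5′ UTR windows in each list, but in replicate 1 the interval included it. The longer site CAAGGTCA was in none of the 688, with an upper Wilson bound of 0.555%. It was in 0.376% of zone windows and 0.111% of all reproducible summits, both under that bound. In the replicate lists it was in 1 of 824 and 1 of 637 downstream summits.

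Of the other motifs, A/T-rich ones were more frequent at intron summits than in introns at large. TATAAA was in 25.9% of intron summits against 14.8% of intron windows. AGATAA, to which GATA factors bind, was in 12.4% against 7.41%. GAGAG, the core of GAGA factor sites, was in 7.32% of intron summits, below the 17.1% and 16.8% of their upstream and downstream flanks and the 10.9% of intron windows. In replicates 1 and 3 it was in 9.91% and 6.71%. GCCAT, the core of Pleiohomeotic sites, was in 11.2% of intron summits against 16.4% of intron windows. Over all reproducible summits the shares were 26.7% for TATAAA, 8.96% for AGATAA, 8.30% for GAGAG and 11.8% for GCCAT. Core upstream summits gave 25.2%, 7.8%, 9.28% and 12.5%. Except for AGATAA, which was more frequent at intron summits, these values were close to those of intron summits. No share was adjusted for GC content.

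Signal was lower at downstream summits than at core upstream summits. The median signal was 258 (range 135 to 3471) for the downstream summits, 338 for core upstream summits and 270 for all reproducible summits. The ratio of the downstream to the core upstream median was 0.763 in the reproducible list, 0.734 in replicate 1 and 0.817 in replicate 3. Within the downstream set the median was 294 for intron summits, 190 for 5′ UTR summits and 167 for coding summits. Both replicates put introns above 5′ UTRs, at 138 against 102 in replicate 1 and 168 against 135 in replicate 3. The downstream set, 9.52% of the reproducible list, held 7 of the 100 strongest reproducible summits and 93 of the 1000 strongest. The 905 core upstream summits, of 7229 in the list, held 234 of the 1000 strongest.

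Of the 688, 669 (97.2%) overlapped a peak in both replicates and 634 (92.2%) had a summit within 100 bp in both, in part because the reproducible list was chosen on these replicates. Over the 669, log2 signal in replicates 1 and 3 had a Pearson's r of 0.832 and a Spearman rank correlation of 0.783. The values were 0.860 and 0.846 for the 401 intron summits and 0.814 and 0.674 for the 244 5′ UTR summits. Points share their libraries, so these are descriptions. Of the 5′ UTR summits 163 (66.8%, 60.7 to 72.4%) ranked higher in replicate 1 than in replicate 3, and of the intron summits 196 (48.9%, 44.0 to 53.8%) did.

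**Figure D5:**
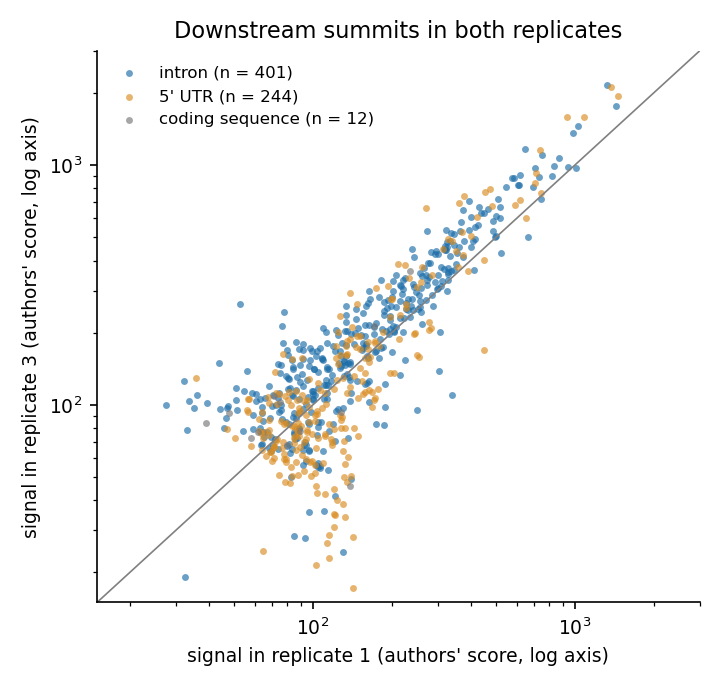
Signal of each downstream summit found in both replicates, replicate 1 (x axis) against replicate 3 (y axis), both log axes of the authors' score, coloured by feature; the line marks equal values. The 401 intron summits follow 1 band, and a tail of 5′ UTR summits with a signal of about 100 in replicate 1 reaches down to 17.2 in replicate 3.

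The 10 strongest downstream summits lay in introns (6) and 5′ UTRs (4), at genes of mixed function. The strongest was at CG8320, in its first intron 90 bp downstream of the TSS (2R, 15992289 to 15992718), with a signal of 1322 in replicate 1 and 2164 in replicate 3. The next, at ph-p, which encodes the Polyhomeotic subunit of Polycomb repressive complex 1, was in the 5′ UTR 425 bp downstream (X, 2137582 to 2138232) with 1377 and 2109. The tandem copy ph-d lies beside ph-p, and reads from near-identical stretches may be split between them. The summit at CG9147 was in the 5′ UTR 15 bp downstream (2L, 6065899 to 6066324) with 1467 and 1938. These 3 ranked from 28 to 47 in both replicate lists. The summit at CG31635, 941 bp downstream in the first intron, had 1431 and 1759.

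The other 6 were also high in both replicates. GstE13, a glutathione S-transferase gene, had a 5′ UTR summit 69 bp downstream with a signal of 1081 in replicate 1 and 1591 in replicate 3. The gene tank had one 137 bp downstream with 933 and 1583. At wde, which encodes Windei, a partner of the histone H3K9 methyltransferase Eggless, an intron summit 545 bp downstream had 981 and 1363. The summits at CG9663, kuk and Dok, whose sequences are given above, complete the set. CG9663 held another summit 752 bp downstream in the same interval, with 577 and 884. Among these 10 the replicate 1 value was the higher only at kuk.

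A handful of genes held several downstream summits. Tlk, a chromatin-associated kinase gene with 8 TSSs, sky, whose product acts on Rab35 in synaptic vesicle recycling, Pgk, Pdp1, lolal and CG13868 had 3 each. The lolal summits 1 and 215 bp downstream matched the same peak of replicate 1. Those of Pdp1 at 291 and 518 bp matched the same peak of replicate 3. At Pgk, which encodes the glycolytic enzyme phosphoglycerate kinase, all 3 were in first introns, with signals of 369, 128 and 189 in replicate 1 and 580, 160 and 97.8 in replicate 3. Just inside the 1000 bp limit were ck, which encodes myosin VIIA, at 1000 bp with a signal of 674 and Cdk4 at 997 bp with 404. Just outside it were cue at 1004 bp with 534 and ptc, which encodes the Hedgehog receptor Patched, at 1005 bp with 300.1.

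By gene function, 4.4% of all 13945 protein-coding genes had a downstream summit in the reproducible list, 5.16% in replicate 1 and 4.19% in replicate 3. Of 18 gene lists 15 stood above the 4.4%. In these 15, from 38.5 to 81.2% of the genes have more than 1 TSS, against 26.5% of all genes. Counts are therefore set beside the density per Mb of zone, which was 44.7 over all genes. Density itself rose with the number of TSSs, at 22.9, 61.6 and 98.8 per Mb for 1, 2 and 3 or more. It therefore does not remove this difference between lists, and no list was adjusted for it. In density 14 lists stood above that value, and the intervals of 6 did not include it. Functions are as generally known for these fly genes, and no list was tested.

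Ribosomal protein genes had their summits close to the start site. Of 93 genes for cytoplasmic ribosomal proteins, 12 (12.9%) had a downstream summit, with 18 in replicate 1 and 9 in replicate 3. All 12 summits lay 3 to 63 bp downstream, where 23.1% of all downstream summits lay within 100 bp, and 10 of the 12 were in 5′ UTRs. The strongest were at RpL24, with a signal of 211 in replicate 1 and 387 in replicate 3, RpS4 with 249 and 312, RpL3 with 214 and 188, and RpL35A with 172 and 181. The density was 136 per Mb (70.5 to 238), 205 in replicate 1 and 102 in replicate 3, and lies in the distance range where the replicates differed. The translation factors were more spread out, with 3 of 8 summits within 100 bp and a density of 151 per Mb (65.4 to 298). Of 49 such genes 7 had one, at eIF3h with 2 summits, at pAbp, the poly(A)-binding protein gene, and at eEF2 and eEF1alpha1, the elongation factor genes, among others. The eEF2 summit, 1 bp downstream of the TSS, had 138 and 292, and that of eEF1alpha1, 12 bp downstream, had 112 and 100.7.

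Genes for chromatin proteins had the highest density of the 18 lists, with an interval that overlapped those of several others. Of 41 genes for Polycomb, trithorax and insulator proteins, 7 (17.1%, 8.52 to 31.3%) had a total of 12 downstream summits, 233 per Mb of zone (120 to 407), and this list gave 233 and 252 per Mb in replicates 1 and 3. Besides ph-p, the Trl gene, which encodes GAGA factor, had a 5′ UTR summit 135 bp downstream with a signal of 341 in replicate 1 and 482 in replicate 3, and an intron summit at 603 bp with 351 and 389. The insulator gene mod(mdg4) had an intron summit at 966 bp with 324 and 299. Dref, whose product binds the DNA replication-related element, had a 5′ UTR summit at 7 bp with 224 and 385. The remaining genes were lolal with 3, some of which shared a replicate 1 peak, ph-d and trx. Of the genes in this list 43.9% have more than 1 TSS. The next highest density was that of the glycolytic list, 224 per Mb (72.7 to 523), where 2 of 16 genes, Pgk and Ald1, held 5 summits. Both Ald1 summits were stronger in replicate 1 than in replicate 3, at 133 against 33.9 for the one 81 bp downstream.

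Signalling genes also stood above the share of all genes. In the EGF, Wnt, Dpp, Hedgehog and Notch pathways 11 of 60 genes (18.3%) had a downstream summit, at 124 per Mb (64.0 to 217), with 13 genes in replicate 1 and 9 in replicate 3. Raf, the MAP kinase kinase kinase of the EGF pathway, had a summit 869 bp downstream with a signal of 653 and 600 in replicates 1 and 3. The summit at sgg, which encodes GSK3, was 951 bp downstream with 257 and 256. S, also named Star, which traffics EGF ligands, had one 47 bp downstream with 277 and 222, and nej, which encodes the coactivator CBP, one 494 bp downstream with 158 and 193. Of 11 JNK and AP-1 genes 1 had a summit, the Fos gene kay, with 75.7 and 85.9.

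Among 21 nuclear receptor genes 3 had downstream summits, and Hr51 itself had none. Eip75B, an ecdysone-induced receptor, had 1 at 46 bp with a signal of 704 in replicate 1 and 845 in replicate 3, and a weaker 1 at 191 bp of another TSS with 131 and 70.6. Hr78 had an intron summit about 100 bp downstream with 498 and 509. The summit at Hr39, 85 bp downstream, had 111 and 42.5, so it was much the weaker in replicate 3. In the circadian clock list, which shares sgg with the signalling list, 3 of 17 genes had summits, sgg, Pdp1 and tim, at 157 per Mb (57.5 to 341). Some Pdp1 summits shared a replicate 3 peak, and each is counted in this density. The tim summit, 219 bp downstream in an intron, had 36.2 in replicate 1 and 110 in replicate 3, and was outside the 7229 strongest of replicate 1.

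Neural lists were mixed. Of 41 pan-neural and synaptic genes 5 had a downstream summit, led by Nrx-1, the neurexin gene, at 109 bp with a signal of 744 and 767 in replicates 1 and 3. The scaffold gene dlg1 had 2 intron summits, the stronger with 214 and 271, and elav, the gene for the pan-neuronal RNA-binding protein, had 1 at 571 bp with 97.5 and 173. Syx1A, the syntaxin gene, had 135 in replicate 1 but 47.5 in replicate 3. Of 40 axon guidance genes 3 had one, at Fas2, robo2 and Ptp10D, with signals from 57.98 to 121 in the replicates. Of 52 neuron identity and neuroblast genes 4 had one, sqz, brat, grh and numb, with sqz highest at 172 and 212. The 3 lists were at 81.2, 48.6 and 58.9 summits per Mb, all with intervals that include the 44.7 over all genes.

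Glial genes had the highest share in the reproducible list, on a small list, but not in replicate 3. Of 22 glial genes 5 (22.7%, 10.1 to 43.4%) had a downstream summit, with 5 in replicate 1 and 4 in replicate 3. Gs2, glutamine synthetase, had an intron summit 535 bp downstream with 486 and 584. Gli, the septate junction protein Gliotactin, had 257 and 356 at 329 bp, ogre, an innexin, had 131 and 153 at 288 bp, and loco, a regulator of G protein signalling, had 109 and 154 at 698 bp. The density was 132 per Mb (42.8 to 307). Of 34 trachea, epidermis and cuticle genes 5 had one, with intron summits at Mcr, a septate junction protein gene (329 and 331), and mmy, which makes UDP-N-acetylglucosamine (301 and 306), and a 5′ UTR summit at the claudin gene pck (123 and 177).

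In the muscle, mesoderm and gut lists 1 or 2 genes each had a downstream summit, and in the Hox and chemoreceptor lists none did. The shares were 2.70% for muscle, 6.67% for mesoderm and heart and 8.33% for gut and endoderm, against 4.40% of all genes. Their densities were 14.6 (0.370 to 81.5), 42.2 (5.11 to 152) and 79.2 per Mb (16.3 to 231.5). All 3 intervals include the 44.7 over all genes. Of 37 muscle structure genes 1 had a downstream summit, Mf, which encodes Myofilin, with 59.2 in replicate 1 and 90.8 in replicate 3. Of 30 mesoderm and heart genes 2 had one, stumps with 140 and 198 and Mef2 with 86.0 and 79.2, and of 24 gut and endoderm genes 2 did, wun with 2 summits and bowl. None of 8 Hox genes and none of 179 chemoreceptor genes had one. For Hox genes that allows a share of up to 32.4%, and for chemoreceptor genes up to 2.10% (upper Wilson bounds). Only 6.70% of the chemoreceptor genes have more than 1 TSS.

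By chromosome, downstream summits were densest on X, at 56.3 per Mb of zone (47.6 to 66.2), with 59.4 in replicate 1 and 51 in replicate 3. Density was 45.6 on 3L, 44.4 on 3R, 41.8 on 2L and 38.5 on 2R. Chromosome 4 had none in 0.111 Mb of zone, which allows up to 33.4 per Mb. In replicate 1 the X value lay close to those of 3L (57.9) and 3R (53.1), so the lead of X was not seen in both replicates to the same extent.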

How the data were processed

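The data were ChIP-seq peak lists of Hr51-GFP from 2 biological replicates of whole embryos. Per the READMEs, the authors derived replicate and pooled peaks from alignments and a control, and the reproducible list from these by an irreproducible discovery rate procedure, on dm6. No aligner or peak caller is named in the sources used here. Deposited by the authors were a signal per peak, whose scale is not stated, and the −log10 of a q-value per peak, which was not used. Replicate and pooled lists held 30000 peaks each, and the reproducible peaks were the 7229 pooled peaks of highest signal.

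Summits were assigned to the nearest of 19607 TSSs of protein-coding transcripts (Ensembl annotation of the same assembly). Of 5 ties the left TSS was taken. Features had the order coding sequence, 5′ UTR, 3′ UTR, noncoding exon, intron, intergenic. Densities are summits per Mb of all positions meeting the same rule. GC content and 20 motifs were read from 50 bp before to 50 bp after each summit and in windows 300 bp away. A summit matched a replicate peak by an overlap of at least 1 bp. Work used Python 3.11.15, numpy 2.4.6, pandas 2.3.3 and scipy 1.17.1, and the code was tested on simulated summits.

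Sequences on 2R were not printed. The members, lists and motifs were chosen with earlier results of these data known. The comparisons by GC content, first intron, number of TSSs, A/T runs, distance within lists and replicate rank were chosen after values had been seen. Named genes were the 10 strongest summits, up to 4 per list, genes with 4 or more summits (not reported here) and the summits nearest to 1000 bp; genes with 3 summits, coding summits and the few other list genes were named after their values were seen. No p-value is given, since there is 1 group of 2 samples and peaks are not replicates. Alternatives covered the TSS set, distance limits, divergent pairs, signal, motif window and each replicate.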

Additional observations from a re-analysis of the deposited data

Results flagged for a closer look

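Among the 22771 pooled peaks outside the reproducible list, which no comparison above used, 2223 (9.76%, 9.38 to 10.2%) were downstream summits by the same rule. They are given here because these weaker peaks hold a signal in a list the report did not otherwise use. Of these, 1085 (48.8%) were in 5′ UTRs, 891 (40.1%) in introns and 158 (7.11%, 6.11 to 8.25%) in coding sequence, against 1.74% in coding sequence among the 688 stronger ones. No control level was available for them, and whether they are enriched was not tested.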

How the results depend on the processing

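No paired analysis was possible because both samples belong to 1 group. Of 61 alternative values over 8 results, 35 stayed within the spread between replicates or 1.5 times the count and 26 moved. The spread is the SD of the 2 values with 1 replicate left out, which are themselves among the 61. Of the 45 alternatives that did not leave out a replicate, 20 moved. The share of reproducible summits that were downstream was 4.94% with a limit of 1 to 500 bp and 7.32% from past 100 bp to 1000 bp. The intron share was 32.8% and 76.6% with these limits and 70.5% in the higher 3614 summits by signal. With the nearer limit the median distance was 112 bp. The ratio of downstream to core upstream signal was 0.850 with only the most upstream TSS of each gene, 0.620 at 1 to 500 bp and 0.824 past 100 bp. The number of genes was 339 at 1 to 500 bp and 306 in the higher 3614. GAGAG was in 5.09% of windows with 25 bp on each side and 20.3% with 100 bp on each side. AGGTCA was in 0.872% and 3.63% of these, 1.53% with the most upstream TSS, 1.68% and 1.70% with the 2 distance limits and 2.76% in the higher 3614. Summits within 100 bp in both replicates made up 92.2%. With 1 replicate left out the ranges were 8.81 to 11.4% for the downstream share, 90.8 to 93.1% for summits also found in the other replicate, 8.48 to 11.9% for GAGAG and 1.82 to 1.88% for AGGTCA. The cause was not tested. With 2 replicates and unknown depth, differences between classes of summits rest on the agreement of 2 lists, and those at 1 to 100 bp rest on lists that differed.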
